A study of Mus musculus with 8 samples.

Results

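The genes described here encode the plasma membrane and lysosomal amino acid transporters of the mouse SLC1, SLC6, SLC7, SLC36 and SLC38 families, together with relatives in the same families that carry taurine, creatine, GABA or noradrenaline. They were chosen by name: every gene whose platform symbol began with Slc1a, Slc6a, Slc7a, Slc36a or Slc38a and a digit. The rule found 58 of the 18194 genes on the array, 7 in SLC1, 21 in SLC6, 16 in SLC7, 5 in SLC36 and 9 in SLC38. Of these 58, 55 are transporter genes, and 3 (Slc7a6os, Slc6a19os and Slc36a1os) are named for lying on the opposite strand to a transporter gene and were counted separately where it mattered. Each gene was read on its brightest probe set over the 8 arrays. These genes had 118 probe sets annotated to 1 gene, and 1 more was left out because it is annotated to several genes.

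The 8 arrays measured polyadenylated RNA from mouse MII oocytes, blastocysts and implantation sites, each from animals labelled KO or WT for connexin 43 (Gja1), a gap junction protein whose depletion was directed to the oocyte according to the series title. There was 1 KO and 1 WT array of MII oocytes, 2 KO and 2 WT arrays of blastocysts, and 1 KO and 1 WT array of the implantation site, whose source is labelled as embryo. The promoter or Cre that removed the gene, the strain, the age of the animals and the number of cells, embryos or animals pooled on an array are not given in the sources used here. Nothing states that the replicate blastocyst arrays came from separate animals, so the spread between them may be technical. For KO against WT in blastocysts, p-values rest on that spread. In comparisons between stages, the KO and WT arrays of oocytes and of the implantation site stand in as replicates of their stage. Those p-values rest on the spread between blastocyst replicates and on how the KO minus WT difference varied between stages.

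Amino acid transporters set which amino acids an egg or early embryo can take up, and their families differ in coupling. SLC1 and SLC6 carriers use the sodium gradient, SLC38 carriers take up glutamine and other small neutral amino acids with sodium, SLC7 carriers are cationic amino acid transporters or exchangers that pair with a heavy chain (Slc3a2 or Slc3a1), and SLC36 carriers are known from lysosomes and epithelia. Oocytes and preimplantation embryos are known to use glycine and other small solutes to hold their volume, and trophectoderm is known for arginine, leucine and glutamine uptake before implantation. Some members also signal: Slc38a9 is a lysosomal arginine sensor of mTORC1, and Slc7a11, Slc38a2 and Slc7a5 are known targets of the amino acid starvation response through ATF4.

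All values are array signals on a linear scale, so a signal is compared between arrays for 1 probe set and never between genes. A member was called above background on an array where it exceeded the brightest of 15 Bacillus control probe sets, which read 334 and 132 on the KO and WT oocyte arrays, 395 and 559.7 on the KO and 199 and 219 on the WT blastocyst arrays, and 131 and 100.2 on the KO and WT implantation site arrays. By that level 26 of 58 members were above background on both oocyte arrays, 14 on all 4 blastocyst arrays and 22 on both implantation site arrays, against 41.2%, 30.7% and 55.9% of all genes. The oocyte count rests on the level chosen: against the brightest of 27 Bacillus control probe sets, a wider set chosen after the values were seen, it was 8, and the others were 12 and 21, against 28.6%, 27.3% and 52.1% of all genes. The share of members in oocytes thus lay above that of all genes by the first level (44.8% of members) and below it by the wider one (13.8%). Of the members, 8 were above the first level on all 8 arrays, and 6 were above it on none. The shares of all genes with these patterns were not counted. The families were unlike in this: in blastocysts 7 of 9 SLC38 members were above background on all 4 arrays, against 4 of 16 in SLC7, 2 of 7 in SLC1, 1 of 21 in SLC6 (Slc6a8) and 0 of 5 in SLC36. In oocytes the counts were 10 of 21 in SLC6, 9 of 16 in SLC7, 4 of 9 in SLC38, 2 of 5 in SLC36 and 1 of 7 in SLC1.

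**Figure D1:**
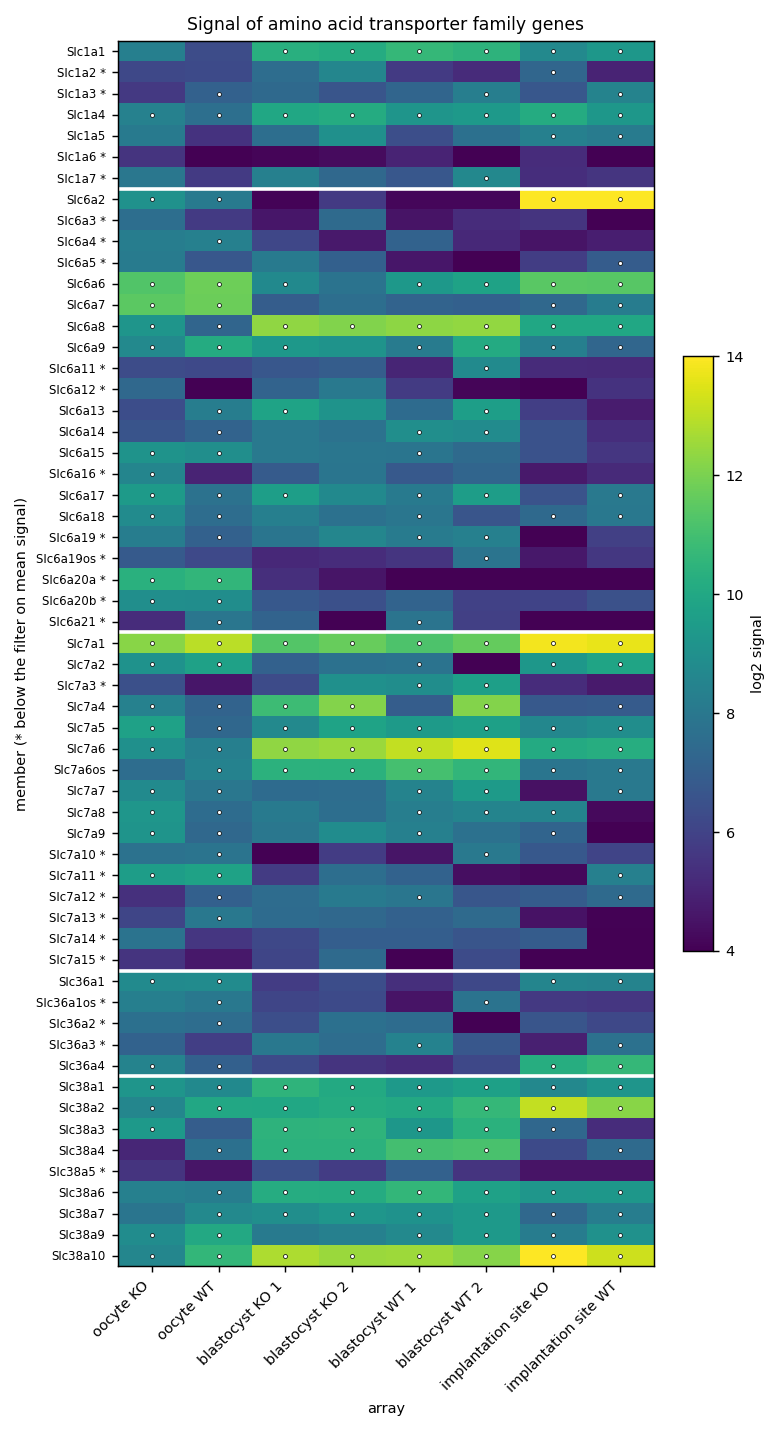
Log2 signal of the 58 members (rows, grouped by family, SLC1 at the top and SLC38 at the bottom) on the 8 arrays (columns). The colour scale saturates at both ends, a dot marks a signal above the brightest of 15 Bacillus control probe sets of that array, and an asterisk marks the 26 members below the filter on mean signal. The SLC38 rows are dotted across the blastocyst columns (7 of 9 on all 4 arrays), while most SLC6 rows are not (1 of 21).

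Several checks on the arrays touch these values. The array labelled blastocyst WT replicate 2 read 574 for Gja1, near the KO arrays (375 and 553) and far from WT replicate 1 (9835), so it is called by its label throughout. On the oocyte arrays Gja1 read 149.7 in KO and 125.7 in WT, both below background, so it does not bear out the oocyte labels, and on the implantation site arrays it read 28105 in KO and 44493 in WT. Decidual markers rather than markers of the blastocyst marked the implantation site arrays: 8 and 9 of 9 decidual markers were above background there, Pgr at 30636 and 27384, with summed signals of 67826 and 57453 against 1161 to 2763 in blastocysts. Of 9 trophectoderm markers 5 were above background on each implantation site array, with sums of 7148 and 6206 against 59868 to 74168 in blastocysts, and Nanog read 4.94 and 10.6. All 6 leukocyte markers were above background on both implantation site arrays, with sums of 25044 and 22619.7, so the labelled embryo is described below by the label's other name, the implantation site. Oocyte markers were present on the oocyte arrays (8 and 9 of 10, Gdf9 at 14152 and 18394), except Zp3, which read 245 and 112. In bulk RNA, fewer cells of a type and less RNA per cell cannot be told apart.

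The RefSeq promoter table (GRCm38.p6, windows from 250 bases before to 50 after a start) held 62 windows for 42 of the 58 members. The windows were searched on both strands for TGATGNAA, the core of the response element of C/EBP and ATF factors, and it was found in 4 of the 42 members (9.52%) against 4.51% of the 27025 genes with a window. The 4 were Slc7a11, Slc1a4, Slc7a7 and Slc6a21. Slc7a7 and Slc7a11 each hold it at 2 places in 1 window. Slc7a11 is shown as a known target of the starvation response, with the motif at -66 on the given strand and at -47 on the other, counted from the table's start site, which lies inside the annotated gene (chromosome 3, 50364936 to 50499087). The others below are shown because their members had the stage patterns described next: Slc6a20a was bright in oocytes, Slc7a6os in blastocysts, and Slc38a2 and Slc36a4 at the implantation site. Each line gives the 250 bases before the start, 5′ to 3′ on the gene's strand. Capitals mark TGATGNAA or GGGCGG, the GC box read by SP factors, on either strand. GGGCGG was in 26 of 42 members (61.9%) and 38.2% of all genes, and TATAAA in 4 (9.52%) and 15.7%, both motifs chosen after values were seen. A match is a description of letters and not of binding.
Slc7a11, chr3:50443614-50443863, minus strand: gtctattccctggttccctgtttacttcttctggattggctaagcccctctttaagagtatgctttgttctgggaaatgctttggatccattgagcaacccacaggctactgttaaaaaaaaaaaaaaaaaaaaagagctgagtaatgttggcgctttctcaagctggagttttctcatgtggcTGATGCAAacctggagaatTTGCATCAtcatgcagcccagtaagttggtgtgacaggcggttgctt
Slc6a20a, chr9:123678833-123679082, minus strand: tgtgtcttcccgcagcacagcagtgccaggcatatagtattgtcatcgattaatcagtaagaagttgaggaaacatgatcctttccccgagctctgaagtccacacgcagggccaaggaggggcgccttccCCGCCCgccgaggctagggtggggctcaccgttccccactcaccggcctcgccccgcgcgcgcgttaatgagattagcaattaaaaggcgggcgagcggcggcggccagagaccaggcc
Slc7a6os, chr8:106210934-106211183, minus strand: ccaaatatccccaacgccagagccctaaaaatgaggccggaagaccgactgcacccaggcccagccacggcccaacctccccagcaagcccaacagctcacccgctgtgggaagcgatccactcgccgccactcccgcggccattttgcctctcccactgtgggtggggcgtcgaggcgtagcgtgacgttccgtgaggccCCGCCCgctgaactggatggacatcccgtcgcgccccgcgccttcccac
Slc38a2, chr15:96699729-96699978, minus strand: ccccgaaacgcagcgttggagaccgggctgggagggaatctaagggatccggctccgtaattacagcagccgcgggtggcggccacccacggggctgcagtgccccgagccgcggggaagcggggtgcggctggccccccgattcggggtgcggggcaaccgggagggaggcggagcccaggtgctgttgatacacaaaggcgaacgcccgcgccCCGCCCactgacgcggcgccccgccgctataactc
Slc36a4, chr9:15709488-15709737, plus strand: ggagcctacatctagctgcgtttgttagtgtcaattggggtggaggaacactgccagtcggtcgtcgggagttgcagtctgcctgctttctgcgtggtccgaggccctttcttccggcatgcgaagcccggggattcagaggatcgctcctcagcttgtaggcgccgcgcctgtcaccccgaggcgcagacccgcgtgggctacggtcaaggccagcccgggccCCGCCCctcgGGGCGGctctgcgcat

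Members highest in oocytes included proline carriers. Slc6a20a, an imino acid carrier that takes up proline and betaine, read 1288 on the KO and 1543 on the WT oocyte array, 40.9 and 23.5 on the KO and 14.8 and 7.85 on the WT blastocyst arrays, and 6.40 and 6.00 at the implantation site. It was above background in oocytes only, at least 4.49-fold higher than in blastocysts and at least 12.3-fold higher than at the implantation site. Such a bound sets the mean log2 signal of the brighter stage against that of the dimmer, with each dim signal raised to the brightest Bacillus control of its array. Its mean over all arrays fell under the filter used for testing (the upper 50% of probe sets, a mean signal of 151), and in the fit without that filter the limma log2 difference of blastocysts from oocytes was -6.27 ± 1.02 SE, adjusted p = 0.000247. Its neighbour on chromosome 9, Slc6a20b, read 487 and 474 in oocytes and 60.9 to 145 in blastocysts, at least 1.53-fold higher in oocytes; without the filter its difference missed the threshold (-2.33 ± 0.85 SE, adjusted p = 0.052).

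Slc6a7, the high affinity proline transporter known from brain synapses, was also highest in oocytes. It read 2851 and 3436 on the KO and WT oocyte arrays, 122, 196, 145 and 135 on the KO and WT blastocyst arrays, and 166 and 293 at the implantation site. Both oocyte arrays stood far above the other 6. The log2 difference was -4.41 ± 0.53 SE, adjusted p = 5.06e-05, for blastocysts against oocytes and -3.83 ± 0.62 SE, adjusted p = 0.000601, for the implantation site against oocytes, in the additive limma fit of stage and genotype over 8 arrays, with Benjamini-Hochberg adjustment over 11746 genes. The blastocyst arrays were all below background, so the oocyte signal was at least 9.98-fold higher there. Both calls held under every alternative tried, but Slc6a7 had no further probe set, so other choices of probe set could not change its signals.

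Slc7a11, the light chain of the cystine and glutamate exchanger, whose upstream sequence with its paired motif is given above, read 755 and 857 in oocytes against 53.4, 194, 141 and 20.9 in blastocysts. At the implantation site it was 18.7 on the KO and 329 on the WT array. Like Slc6a20a it was below the filter, and without it the log2 difference of blastocysts from oocytes was -3.44 ± 1.19 SE, adjusted p = 0.0418, at least 2.57-fold higher in oocytes. Slc6a15, a carrier of branched-chain amino acids and proline, read 561 and 497 in oocytes, 178 to 266 in blastocysts and 92.6 and 48.3 at the implantation site, at least 4.61-fold higher in oocytes than at the implantation site (-2.98 ± 0.75 SE, adjusted p = 0.009; adjusted p = 0.0683 without the WT oocyte array). Slc6a9, the glycine transporter known for volume control in eggs, was above background on both oocyte arrays but far apart on them, at 412 in KO and 1135 in WT. In blastocysts it read 646, 559, 288 and 1114, and no stage difference passed the limma test (adjusted p from 0.112 to 0.801). Slc38a9, the arginine sensor, read 461 and 1056 in oocytes, 268 to 668 in blastocysts and 294 and 529 at the implantation site, with no stage call.

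**Figure D2:**
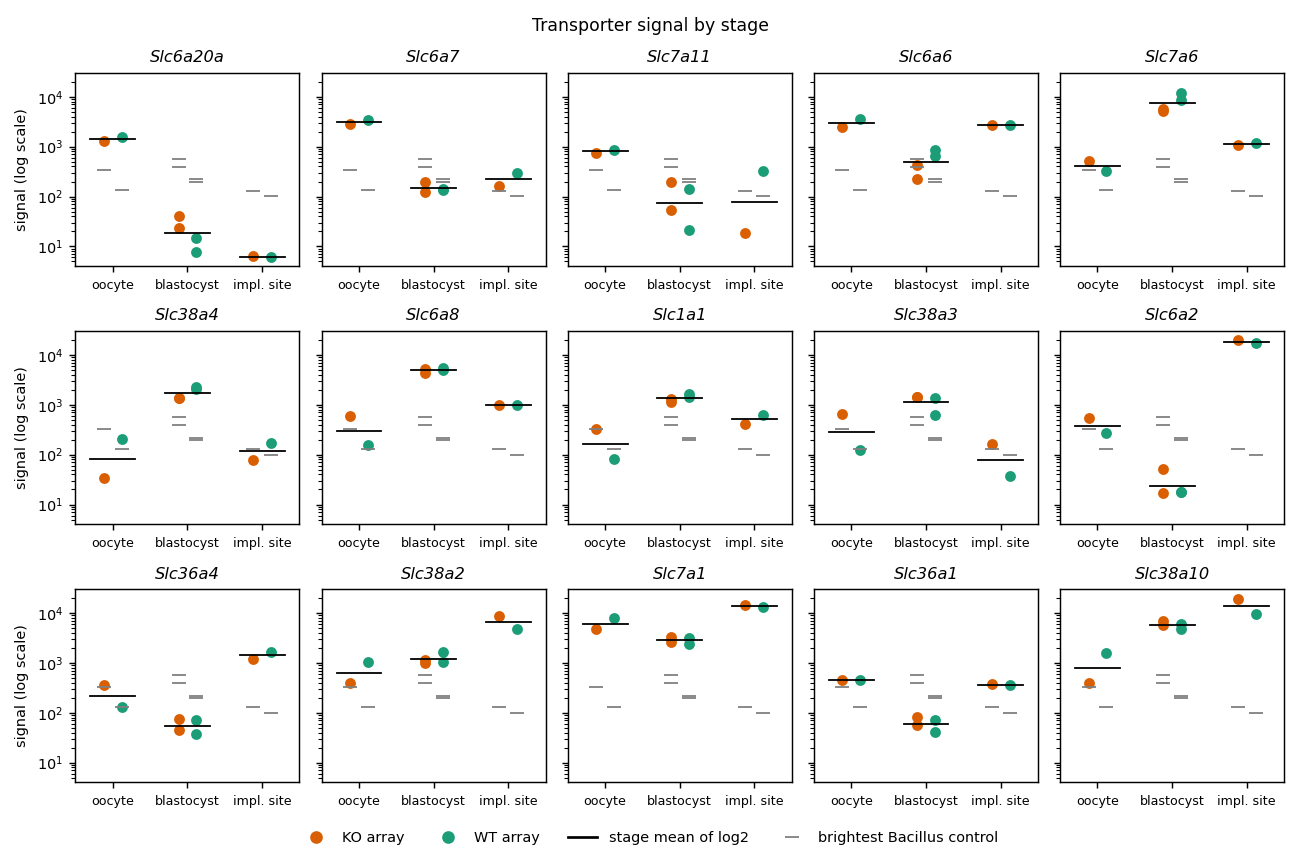
Signal (log scale) of 15 members by stage, with KO arrays in orange and WT arrays in green; the line is the mean of log2 signal and the grey ticks are the brightest Bacillus control of each array. Slc6a20a and Slc6a7 are bright on the 2 oocyte arrays, Slc7a6, Slc38a4 and Slc6a8 on the 4 blastocyst arrays, and Slc6a2, Slc36a4 and Slc38a2 on the 2 implantation site arrays.

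From oocyte to blastocyst, 9 of the 32 members that passed the filter were called higher, where 26.9% of all tested genes were, and 6 were called lower, where 18.6% were. The median difference was 0.88 over the tested members and 0.43 over all tested genes, on the log2 scale. Without the WT oocyte array these were 0.38 and 0.20, and with probe sets averaged they were 0.16 and 0.30, so that the members then lay below all genes. Of all 58 members without the filter, 9 were called higher (16.9% of all genes) and 8 lower (13.1%). A member that passed the filter through 1 bright stage had to differ, so these counts describe the members and support nothing about them.

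The members called higher in blastocysts held exchangers, glutamine carriers and a creatine carrier. Slc7a6, an exchanger of cationic for neutral amino acids that pairs with Slc3a2, read 515 and 320.2 on the KO and WT oocyte arrays, 5224 and 5725 on the KO and 8567 and 11836 on the WT blastocyst arrays, and 1095 and 1200.3 at the implantation site. Every blastocyst array was above every other array. It rose to the blastocyst (4.19 ± 0.37 SE, adjusted p = 6.01e-06) and fell from there to the implantation site (-2.69 ± 0.37 SE, adjusted p = 0.000334). Slc7a6os, which lies 1723 bases beyond Slc7a6 on chromosome 8 and runs toward it, read 192 and 350.2, then 1361, 1351, 2100.2 and 1523, then 235 and 263, with differences of 2.59 ± 0.40 SE, adjusted p = 0.00031 and -2.65 ± 0.40 SE, adjusted p = 0.000619. The genes do not overlap in the RefSeq annotation of GRCm38 (Slc7a6 at 106168219 to 106198714, Slc7a6os at 106200438 to 106210933). The second probe set of each gene moved the same way, that of Slc7a6 from 52.2 and 40.7 in oocytes to 625 to 1106 in blastocysts.

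Slc6a8, the creatine transporter, read 593 and 153 in oocytes and 5184, 4422, 5048 and 5386 in blastocysts. The 4 blastocyst arrays lay close together and above all others, with 1003 and 981 at the implantation site. It rose to the blastocyst (4.05 ± 0.43 SE, adjusted p = 2.03e-05) and fell from there (-2.33 ± 0.43 SE, adjusted p = 0.00192). Slc1a1, a glutamate, aspartate and cysteine carrier, read 322 and 80.9 in oocytes, both below background, and 1280.0, 1131, 1620.5 and 1424 in blastocysts, at least 6.43-fold higher (3.07 ± 0.54 SE, adjusted p = 0.000739). Its 419.6 and 623 at the implantation site lay between, but neither of those differences passed the test (adjusted p = 0.065 against blastocysts and 0.0572 against oocytes, limma). Slc1a4, a carrier of alanine, serine and cysteine, was 339 and 199 in oocytes and 600.3 to 1133 in blastocysts (1.66 ± 0.39 SE, adjusted p = 0.00451). Its other probe sets were dim, and the mean over all its probe sets lost that call (adjusted p = 0.47). Its relative Slc1a5, a glutamine carrier, was scattered within stages, 269 and 44.5 in oocytes and 84.8 to 516 in blastocysts, and had no stage call.

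Among SLC38 members 4 of 8 tested were called higher in blastocysts than in oocytes and 0 lower, with 7 of 8 differences above 0, where 26.9% and 18.6% of all tested genes were called and the all-gene median was itself 0.43. Slc38a4, a system A carrier known as an imprinted placental gene, read 33.5 and 205 in oocytes, 1393, 1380.5, 2069.7 and 2264 in blastocysts and 76.9 and 174 at the implantation site. The blastocyst arrays were above all others, and the differences were 4.39 ± 0.55 SE, adjusted p = 6.27e-05 and then -3.90 ± 0.55 SE, adjusted p = 0.000366. Slc38a3, a glutamine carrier of system N, was split in oocytes, 657 in KO and 123 in WT, and read 1402, 1436, 631 and 1349.9 in blastocysts. Its difference was 2.01 ± 0.59 SE, adjusted p = 0.0154, and the adjusted p was 0.1795 without the WT oocyte array and 0.0526 without the array labelled WT replicate 2. Slc38a6 read 325 and 298 in oocytes, 852 to 1594 in blastocysts and 611 and 627 at the implantation site, and rose to the blastocyst (1.90 ± 0.40 SE, adjusted p = 0.00241). Slc38a10 read 388 and 1586, then 4691 to 7007 (2.88 ± 0.49 SE, adjusted p = 0.000575). The further Slc38a10 probe sets that passed the filter ran the other way, with log2 differences of -0.32, -0.43 and -0.36. Those below the filter gave 1.94, 0.84 and -0.26. Averaging all probe sets of the gene ended the calls of Slc38a3, Slc38a6 and Slc38a10 (adjusted p = 0.0716, 0.0678 and 0.437). Slc38a1, a glutamine carrier, read 594 and 431 in oocytes, 688 to 1459 in blastocysts and 407 and 591 at the implantation site, with no call on this probe set.

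The members called lower in blastocysts than in oocytes were Slc6a7, already given, and 5 others, and all 5 were called higher again at the implantation site than in blastocysts. Slc6a6, the taurine transporter, read 2509.9 and 3511 in oocytes, 434 and 226 in KO and 643 and 866 in WT blastocysts, and 2775 and 2676 at the implantation site. The blastocyst arrays were the lowest 4 of the 8. Its differences were -2.62 ± 0.42 SE, adjusted p = 0.000348 and 2.50 ± 0.42 SE, adjusted p = 0.00103, both lost when all its probe sets were averaged (adjusted p = 0.0813 and 0.233). Slc36a1, a proton-coupled carrier of lysosomes, read 443 and 456, then 40.7 to 82.8, then 375 and 356. Its blastocyst signals were all below background, so it was at least 1.43-fold higher in oocytes and at least 1.16-fold higher at the implantation site (-2.89 ± 0.75 SE, adjusted p = 0.00851 and 2.59 ± 0.75 SE, adjusted p = 0.0207). The first call was lost without the KO or the WT oocyte array (adjusted p = 0.0591 and 0.104) and the second without the KO or the WT implantation site array (0.125 and 0.0939).

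Slc7a1, the main carrier of arginine and lysine, was above background on all 8 arrays: 4719.7 and 7969 in oocytes, 2587, 3277, 2377 and 3187 in blastocysts, and 14500.4 and 13118 at the implantation site. The blastocyst arrays were the lowest 4 (-1.12 ± 0.31 SE, adjusted p = 0.0123; adjusted p = 0.209 without the WT oocyte array) and the implantation site arrays the highest 2 (2.28 ± 0.31 SE, adjusted p = 0.000305). A second probe set of Slc7a1 ran otherwise, at 1030.1 and 1686 at the implantation site against 1404 to 3027 in blastocysts, and the average over its probe sets gave an adjusted p of 0.0713 for implantation site against blastocyst. Slc7a2, a cationic carrier of lower affinity, read 545 and 834 in oocytes, 136, 211, 221 and 12.7 in blastocysts and 636 and 906 at the implantation site (-2.83 ± 1.04 SE, adjusted p = 0.0433 and 3.00 ± 1.04 SE, adjusted p = 0.0421). The first Slc7a2 call was lost without 5 of the 8 arrays in turn (both oocyte arrays, blastocyst KO replicate 1 and both implantation site arrays, adjusted p up to 0.341), and the second without the same 5 (up to 0.261) and with probe sets averaged (0.209).

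**Figure D3:**
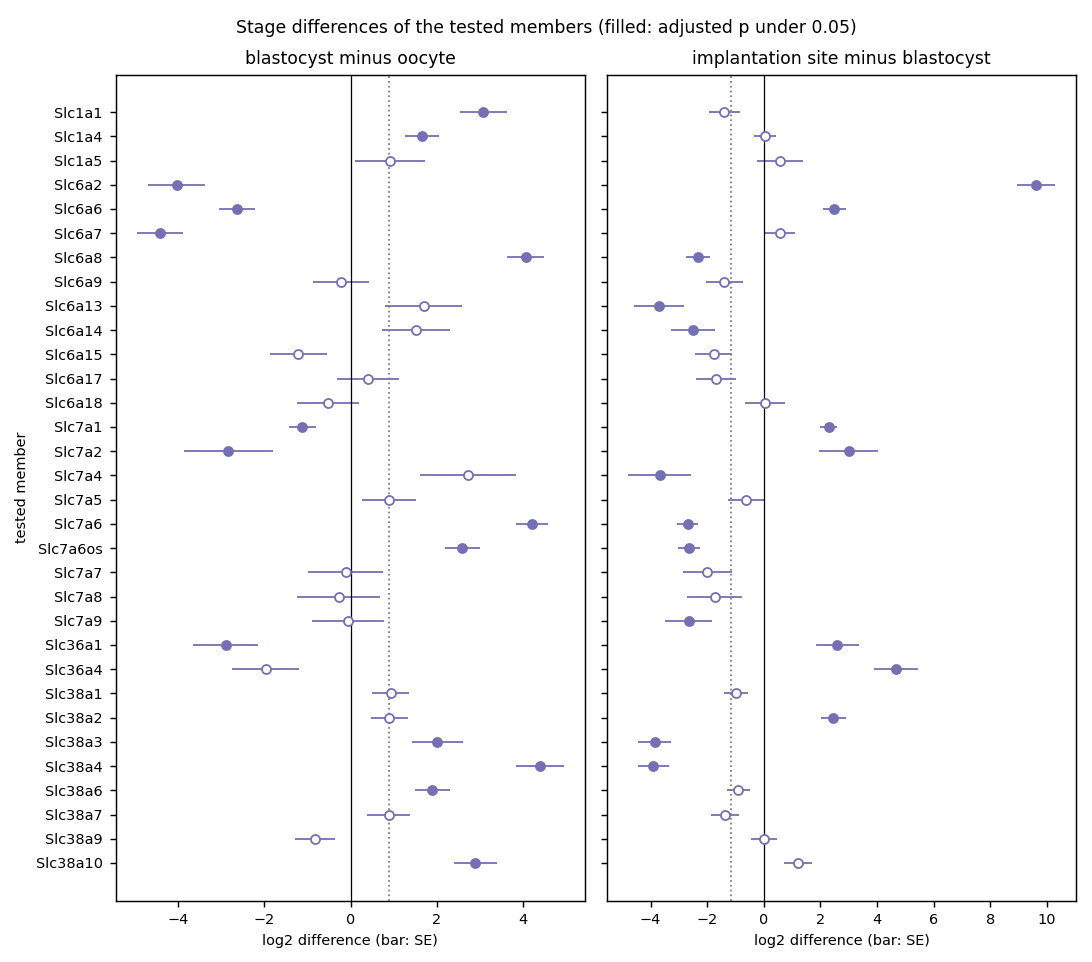
Log2 differences between stages (points) with their standard errors (bars) for the 32 tested members, from the additive limma fit over 8 arrays; filled points have an adjusted p under 0.05 and the dotted line is the members' median. To the left, 9 filled points lie above 0 and 6 below; to the right, 7 lie above 0 and 9 below.

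At the implantation site 7 of 32 tested members were called higher than in blastocysts, where 15.3% of all tested genes were, and 9 lower, where 20.0% were. The median difference was -1.17 over the members and -0.35 over all tested genes, and -0.55 and -0.16 without the KO implantation site array. Without the filter 7 of 58 members were called higher (10.5% of all genes) and 12 lower (15.1%). The marker values above move with this comparison: decidual and leukocyte markers were bright at the implantation site and trophectoderm markers in blastocysts, and their part in the members' differences was not tested.

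Slc6a2, the noradrenaline transporter, had the largest difference of any tested member. It read 531 and 269 in oocytes, 17.0, 51.9, 18.1 and 18.2 in blastocysts, all below background, and 19744 and 16912 at the implantation site. The implantation site signal was at least 58.3-fold higher than in blastocysts (9.62 ± 0.66 SE, adjusted p = 3.71e-06), and the difference from oocytes was 5.60 ± 0.77 SE, adjusted p = 0.000211. In oocytes it was at least 1.20-fold higher than in blastocysts (-4.02 ± 0.66 SE, adjusted p = 0.000453). The high signal was on 1 probe set: another of Slc6a2 read 354 and 157 at the implantation site against 40.6 to 309 in blastocysts. On the other Slc6a2 probe sets the log2 difference from blastocysts was -0.73, -0.44 and 0.47. The average of all its probe sets holds the bright probe set, so it is no separate check on it. That average kept the call against blastocysts (adjusted p = 0.0182) and lost those of the implantation site against oocytes and of blastocysts against oocytes (adjusted p = 0.567 and 0.0516).

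Slc36a4, a carrier of proline and tryptophan, read 351 and 132 in oocytes, 75.0, 44.8, 38.1 and 72.4 in blastocysts and 1207 and 1635 at the implantation site. It was at least 4.48-fold higher at the implantation site than in blastocysts (4.67 ± 0.77 SE, adjusted p = 0.000941), a call kept under every alternative. Slc36a4 had no further probe set, so other choices of probe set could not change its signals. Against oocytes the difference was 2.70 ± 0.89 SE, adjusted p = 0.0323, and the call was lost without the WT oocyte, the KO implantation site or the WT implantation site array (adjusted p = 0.199, 0.0819 and 0.201). Slc38a2, the stress-induced system A carrier, read 387 and 1033 in oocytes, 1005, 1144, 1037 and 1621 in blastocysts and 8647 and 4831 at the implantation site. Both implantation site arrays were above the other 6, and the differences were 2.45 ± 0.43 SE, adjusted p = 0.00136, against blastocysts, and 3.35 ± 0.50 SE, adjusted p = 0.000342, against oocytes, both kept under every alternative. A second Slc38a2 probe set was also higher there, at 1669.8 and 2529 against 43.4 to 737 in blastocysts. Slc38a10 read 18608 and 9738 there, which differed from oocytes (4.10 ± 0.57 SE, adjusted p = 0.000225; adjusted p = 0.386 over the average of its probe sets) and not from blastocysts beyond the test (1.22 ± 0.49 SE, adjusted p = 0.0757).

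The 9 members called lower at the implantation site than in blastocysts included Slc7a6, Slc7a6os, Slc6a8 and Slc38a4, already given, and Slc38a3, which fell to 164 and 38.1 (-3.86 ± 0.59 SE, adjusted p = 0.000605). Slc6a13, a GABA and taurine carrier, read 81.8 and 304 in oocytes, 881, 558, 179 and 775 in blastocysts and 57.4 and 26.9 at the implantation site (-3.70 ± 0.89 SE, adjusted p = 0.00816; adjusted p = 0.0595 without the WT implantation site array). Slc6a14, a broad carrier of neutral and cationic amino acids, read 96.0 and 146 in oocytes, 262 and 221 in KO and 498 and 456 in WT blastocysts and 92.2 and 39.2 at the implantation site (-2.49 ± 0.78 SE, adjusted p = 0.0282). That call was lost without any of the blastocyst arrays or without the WT implantation site array (adjusted p from 0.0513 to 0.23), and under quantile normalization or common-median scaling (0.0743 and 0.0646), although a second Slc6a14 probe set ran the same way, with 354 to 1064 in blastocysts and 92.2 and 50.5 at the implantation site. Slc7a4, a relative of the cationic carriers without known transport, was widely scattered among blastocysts. In oocytes it was 338 in KO and 146 in WT. It read 1829, 4487 and 4468 on blastocyst KO replicates 1 and 2 and the array labelled WT replicate 2, but 125 on WT replicate 1, and 111 and 117 at the implantation site (-3.69 ± 1.10 SE, adjusted p = 0.0233). Its call was lost without blastocyst KO replicate 2 or the KO implantation site array (adjusted p = 0.0617 and 0.2459), and with probe sets that carry no suffix alone (0.0633). Slc7a9, which pairs with Slc3a1 to carry cystine and cationic amino acids, read 247, 465, 327 and 214 in blastocysts and 149.9 and 14.9 at the implantation site (-2.66 ± 0.83 SE, adjusted p = 0.0272). It was lost without blastocyst KO replicate 2, either WT blastocyst array or the WT implantation site array (adjusted p from 0.0595 to 0.2425), and under quantile normalization or common-median scaling (0.0654 and 0.0503).

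Against oocytes, 8 of 32 tested members were called higher at the implantation site, where 20.5% of all tested genes were, and 3 lower, where 16.6% were. The medians were -0.09 over members and -0.06 over all tested genes. Besides Slc6a2, Slc36a4, Slc38a2 and Slc38a10, the higher members were Slc1a4 (1132 and 621; 1.69 ± 0.45 SE, adjusted p = 0.0117), Slc6a8 (1.72 ± 0.50 SE, adjusted p = 0.0186), Slc7a1 (1.17 ± 0.36 SE, adjusted p = 0.0244) and Slc7a6 (1.50 ± 0.43 SE, adjusted p = 0.0175). Each of these 4 calls was lost without at least 1 array, and that of Slc1a4 also with probe sets averaged (log2 difference 0.28, adjusted p = 0.791, limma). Without the WT oocyte array the adjusted p was 0.2135 for Slc6a8 and 0.1917 for Slc7a6, without the WT implantation site array it was 0.1075 for Slc6a8, and without the KO implantation site array it was 0.07 for Slc1a4, 0.0863 for Slc7a6 and 0.114 for Slc7a1. For Slc7a1 it was 0.219 without the KO oocyte array, and the average of its probe sets turned the sign, to -0.17, while common-median scaling gave an adjusted p of 0.0684. Without the intensity trend of limma the calls of Slc6a8, Slc7a1 and Slc7a6 against oocytes were lost as well (0.0614, 0.0861 and 0.0633), as were those of Slc7a1 from oocyte to blastocyst (0.0549), of Slc7a2 in both of its comparisons (0.0738 and 0.0749) and of Slc7a4 (0.0631). The lower members were Slc6a7 and Slc6a15, given above, and Slc7a9 (581 and 168 in oocytes; -2.72 ± 0.95 SE, adjusted p = 0.0429), whose call was lost without either oocyte array, either KO blastocyst array, the array labelled WT replicate 2 or the WT implantation site array (adjusted p from 0.0509 to 0.262), with either other scaling (0.0624 and 0.0564) and without the filter (0.0529). These comparisons share arrays, so their values stand side by side and no agreement between them is drawn.

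Other probe sets of the same genes give a further reading that did not choose the values. Of 25 further probe sets that passed the filter, in 19 tested genes, 17 had the sign of the representing probe set for blastocyst minus oocyte and 19 for implantation site minus blastocyst. They ran together for Slc7a6, Slc7a6os, Slc6a8, Slc1a1, Slc38a4 and Slc6a14. They parted most for Slc6a2, for Slc38a10, whose 3 further probe sets that passed read 205 and 399, 226 and 173, and 283 and 216 at the implantation site, and for Slc38a1, whose second probe set read 4346 and 3604 there against 64.2 to 411 in blastocysts.

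**Figure D4:**
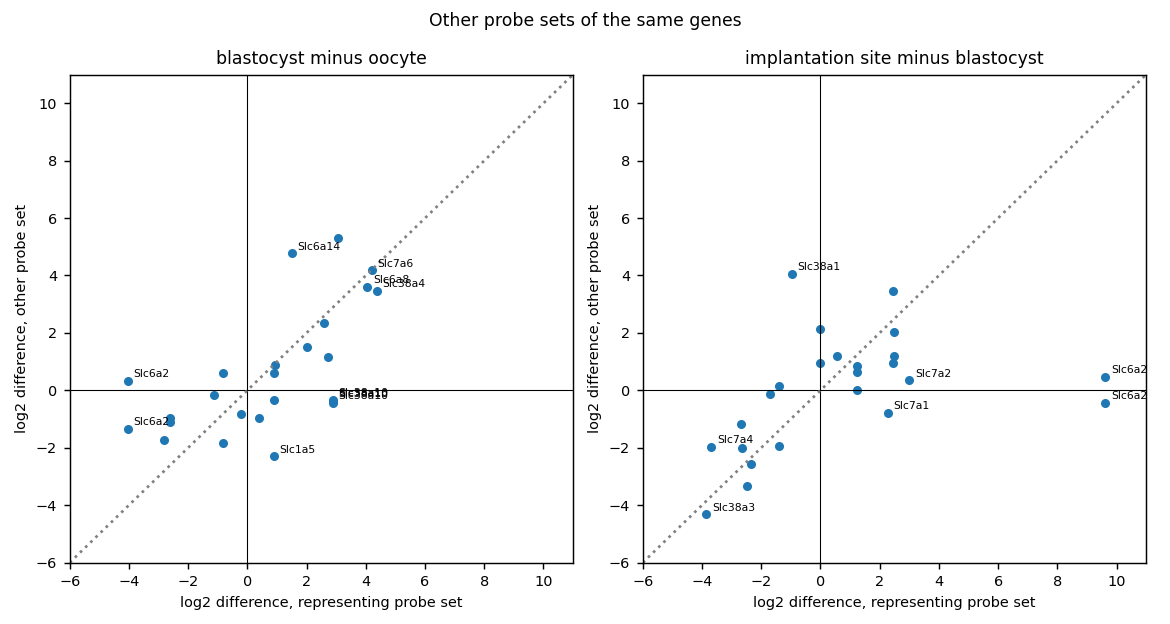
Log2 stage difference on the representing probe set (horizontal) against that on each further probe set of the same gene that passed the filter (vertical), 25 probe sets of 19 genes; the dotted line marks equal values. Slc7a6, Slc6a8 and Slc38a4 lie near the line to the left, and Slc6a2 lies far from it to the right.

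Genes that work with these transporters were read as 3 lists. The list of partners and other amino acid transporters had 13 measured genes, of which 9 were tested: 3 were called higher in blastocysts than in oocytes and 0 lower, and 0 were called higher and 1 lower at the implantation site than in blastocysts. Of all tested genes, 26.9% were called higher and 18.6% lower in the first comparison, and 15.3% and 20.0% in the second. Slc3a2, the heavy chain that Slc7a5, Slc7a6, Slc7a7, Slc7a8 and Slc7a11 need at the membrane, lay between 778 and 1711 on all 8 arrays, and no stage difference passed the test (adjusted p from 0.161 to 0.955). Its partner Slc7a5, the main leucine exchanger, read 838 and 163 in oocytes, 413 to 901 in blastocysts and 399 and 482 at the implantation site, also with no stage call. Slc16a10, a carrier of aromatic amino acids, was the list's lower member at the implantation site, 353 and 199.9 against 553 to 759 in blastocysts (log2 difference -1.30 ± 0.42 SE, adjusted p = 0.0337, limma). Mfsd12, which takes cysteine into lysosomes, rose from 101 and 28.5 in oocytes to 740.0 to 1384 in blastocysts (4.26 ± 0.53 SE, adjusted p = 6.29e-05, limma).

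Of the genes that sense amino acids at mTORC1, 33 were measured and 28 tested. Between oocyte and blastocyst 10 were called higher and 11 lower, and between blastocyst and implantation site 5 higher and 8 lower. Over all tested genes the shares were 26.9% and 18.6%, then 15.3% and 20.0%. The Rag GTPase Rragc read 29522 and 44427 in oocytes and 1375 to 2109 in blastocysts, while Rragd, which can stand in its place, ran the other way, with 139.8 and 375 in oocytes and 6183 to 11864 in blastocysts (log2 differences -4.40 and 5.21, adjusted p = 1.42e-06 and 7.72e-07, limma). Sesn2, a leucine sensor, was 1155 to 4114 in blastocysts and 172 and 27.4 at the implantation site (-5.15 ± 0.54 SE, adjusted p = 5.77e-05, limma). Of the starvation response genes, 23 were measured and 22 tested, with 8 called higher and 5 lower from oocyte to blastocyst and 5 higher and 6 lower from there to the implantation site, beside the same shares of all tested genes. Psat1 and Phgdh, enzymes of serine synthesis, and Asns, asparagine synthetase, rose to the blastocyst by 7.69, 3.84 and 3.37 (adjusted p = 9.28e-07, 0.000212 and 2.35e-05, limma), while Mthfd2, of mitochondrial folate metabolism, differed by -3.04 (adjusted p = 2.18e-05, limma). Called genes of the sensing and starvation lists thus lay in both directions. The KO comparisons that follow called 0 genes of these lists.

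KO and WT blastocysts were compared with limma over the 4 blastocyst arrays. No member was called: 0 of 32 were higher, where 0.102% of all tested genes were, and 0 lower, where 0% were, and at an unadjusted p under 0.05 there were 0 higher and 3 lower (1030 and 788 of all 11746 genes). The genotype term of the fit over all 8 arrays called 0 members and 0 genes of 11746 in either direction, with 2 members higher and 2 lower at an unadjusted p under 0.05 (428 and 385 of all genes). The lowest adjusted p of a member in blastocysts was 0.246, for Slc7a6. It read 5224 and 5725 in KO and 8567 and 11836 in WT, a log2 difference of -0.88 ± 0.29 SE. Slc6a6 had 434 and 226 in KO against 643 and 866 in WT (-1.25 ± 0.52 SE, adjusted p = 0.307), and Slc6a14 had 262 and 221 against 498 and 456 (-0.99 ± 0.54 SE, adjusted p = 0.405). Further Slc6a6 probe sets that passed the filter were higher in KO, at 587 and 627 against 202 and 357, and 383 and 199 against 78.8 and 65.9. With its probe sets averaged the sign of Slc6a6 turned, to 0.30. Both KO signals of Slc6a14 were below background, so the bound is only at least 1.01-fold higher in WT. Slc7a6, Slc6a6 and Slc6a14 all failed to pass the test. Both KO arrays were below both WT arrays for 9 of the 32 members and above them for 4, where 25.3% and 23.8% of all tested genes were.

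Slc7a7, the partner of Slc3a2 for cationic amino acid efflux, read 183 and 189 in KO, below background, and 356 and 696 in WT blastocysts (-1.42 ± 0.61 SE, adjusted p = 0.316). With its probe sets averaged the sign of Slc7a7 turned, to 0.39. Slc1a5 read 195 and 516 in KO and 84.8 and 206 in WT (1.27 ± 0.81 SE, adjusted p = 0.476), and Slc6a13 read 881 and 558 against 179 and 775 (0.91 ± 0.70 SE, adjusted p = 0.549). The KO and WT values of both overlapped. Slc7a2 had 136 and 211 in KO against 221 and 12.7 in WT (1.68 ± 1.38 SE, adjusted p = 0.58), and without the array labelled WT replicate 2, the dimmest of the 4, the sign turned, to -0.38. Slc7a4 had the largest difference, 1.94 ± 1.33 SE, adjusted p = 0.505, and its WT values, 125 and 4468, lay on both sides of KO replicate 1, the second being on the array labelled WT replicate 2. Another Slc7a4 probe set that passed the filter read 334 and 473 in KO and 329 and 185 in WT. A dimmer probe set below the filter read 81.3 and 89.7 against 150 and 163. Without the array labelled WT replicate 2, the representing probe set was called higher in KO against WT replicate 1 alone (log2 difference 4.52). That was the only call on a member in blastocyst KO against WT under any alternative. Apart from that, leaving out any of the 4 arrays called 0 members.

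Measures of RNA and of background differed between KO and WT blastocysts as well. The 3′ to 5′ signal ratio of Actb was 25.7 and 39.0 in KO and 69.3 and 69.1 in WT, and the brightest Bacillus control was 395 and 559.7 against 199 and 219. All 9 trophectoderm markers were above background on every blastocyst array, with sums of 67629 and 68096 in KO and 74168 and 59868 in WT, and inner cell mass markers summed to 4877 and 5885 in KO and 7388 and 5826 in WT (4 to 6 of 6 above background). Of 6 leukocyte markers 2 to 4 were above background, with sums of 8194 and 14278 in KO and 1428 and 4652 in WT, of which Csf1r gave 6134, 11937, 593 and 3881, while Ptprc was below background on all 4 arrays. The part of these in the members' values was not tested.

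In oocytes each genotype had 1 array, so differences have no replicate check and no test was made. Of the 32 members that passed the filter 11 were at least 2-fold higher in KO, where 23.9% of all tested genes were, and 6 at least 2-fold lower, where 12.3% were. The median difference was 0.32 over these members and 0.09 over all tested genes on the log2 scale, and 0.38 over all 58 members without the filter against 0.34 over all genes. The balance of these counts turned with the scaling: with a common median 8 members were at least 2-fold higher and 12 lower (1674 and 3441 of 11746 genes), with medians of -0.23 and -0.45, and under quantile normalization 8 were higher and 9 lower (1782 and 2187 genes). The gap between the medians of members and all genes, 0.23, was 0.071 under quantile normalization, 0.040 without the filter and 0.0064 with probe sets without suffix. Among the 43 members above background on at least 1 oocyte array, 11 were at least 2-fold higher and 10 lower, where 20.4% and 16.0% of such genes were. The 6 largest differences were those of Slc6a16, an orphan carrier (372 in KO and 31.8 in WT), Slc6a21 (38.3 and 243), Slc38a4 (33.5 and 205), Slc38a3 (657 and 123), Slc7a5 (838 and 163) and Slc38a10 (388 and 1586). The dim array was below background for Slc6a16 and Slc38a3 in WT, which makes them at least 2.81-fold and at least 4.97-fold higher in KO, and for Slc6a21 and Slc38a4 in KO, where the WT signal was under the KO array's own background, so those have no fold. Slc7a5 was 5.14-fold higher in KO and Slc38a10 4.09-fold lower. Their dim signals were above the first level but below the brightest of the 27 Bacillus controls (171 on the WT and 588 on the KO array). Further probe sets of these genes that passed the filter did not all run the same way. For Slc38a10 they read 827 in KO and 73.9 in WT, 473 and 115, and 155 and 217. That of Slc38a4 was higher in KO (318 and 36.15), against its representing probe set. That of Slc38a3 ran the same way as its representing probe set (618 and 74.1). Of the oocyte-high members given above, Slc6a20a, Slc6a7 and Slc7a11 were 1.20-fold, 1.21-fold and 1.14-fold lower in KO, and Slc6a15 and Slc6a20b were 1.13-fold and 1.03-fold higher. The Actb 3′ to 5′ ratio was 6.68 in KO and 33.4 in WT, that of Gapdh 2.41 and 10.1, and the brightest Bacillus control 334 and 132, and the part of these in the differences was not tested.

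At the implantation site, again with 1 array per genotype, 6 of the 32 members were at least 2-fold higher in KO, where 6.12% of all tested genes were, and 3 at least 2-fold lower, where 15.9% were. The median was -0.00 over these members and -0.13 over all tested genes, and with a common median it was 0.41 and 0.28, with 10 members at least 2-fold higher and 2 lower. That scaling also turned the balance over all tested genes, from 719 higher and 1862 lower to 1730 and 1086. With a pseudocount of 38.7 added to the signals, 3 members were at least 2-fold higher and 2 lower (521 and 1422 of 11746 genes). Of the 6 members first counted as higher, Slc6a13 (57.4 and 26.9) and Slc6a14 (92.2 and 39.2) were below background on both arrays. Among the 35 members above background on at least 1 of the arrays, 5 were at least 2-fold higher and 7 lower, where 6.32% and 21.8% of such genes were. The 6 largest differences were all in members below background on 1 of the arrays. Slc7a8, a neutral amino acid exchanger, read 361 in KO and 19.2 in WT, at least 3.60-fold higher in KO. Slc7a9 (149.9 and 14.9) and Slc1a2, a glutamate carrier (157 and 31.8), were at least 1.50-fold and 1.56-fold higher in KO. Slc7a11 (18.7 and 329), Slc7a7 (22.1 and 262) and Slc36a3 (29.1 and 214) were at least 2.52-fold, 2.00-fold and 1.63-fold lower in KO. Of members given above at this stage, Slc6a2, Slc6a6, Slc6a8, Slc7a1, Slc7a6 and Slc36a4 differed by 1.02-fold to 1.35-fold on their representing probe sets. On theirs, Slc38a2 and Slc38a10 were 1.79-fold and 1.91-fold higher in KO. Further Slc38a2 probe sets that passed the filter were lower in KO (1670 and 2529, 123 and 443). Those of Slc38a10 ran both ways (226 and 173, 283 and 216, 205 and 399).

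**Figure D5:**
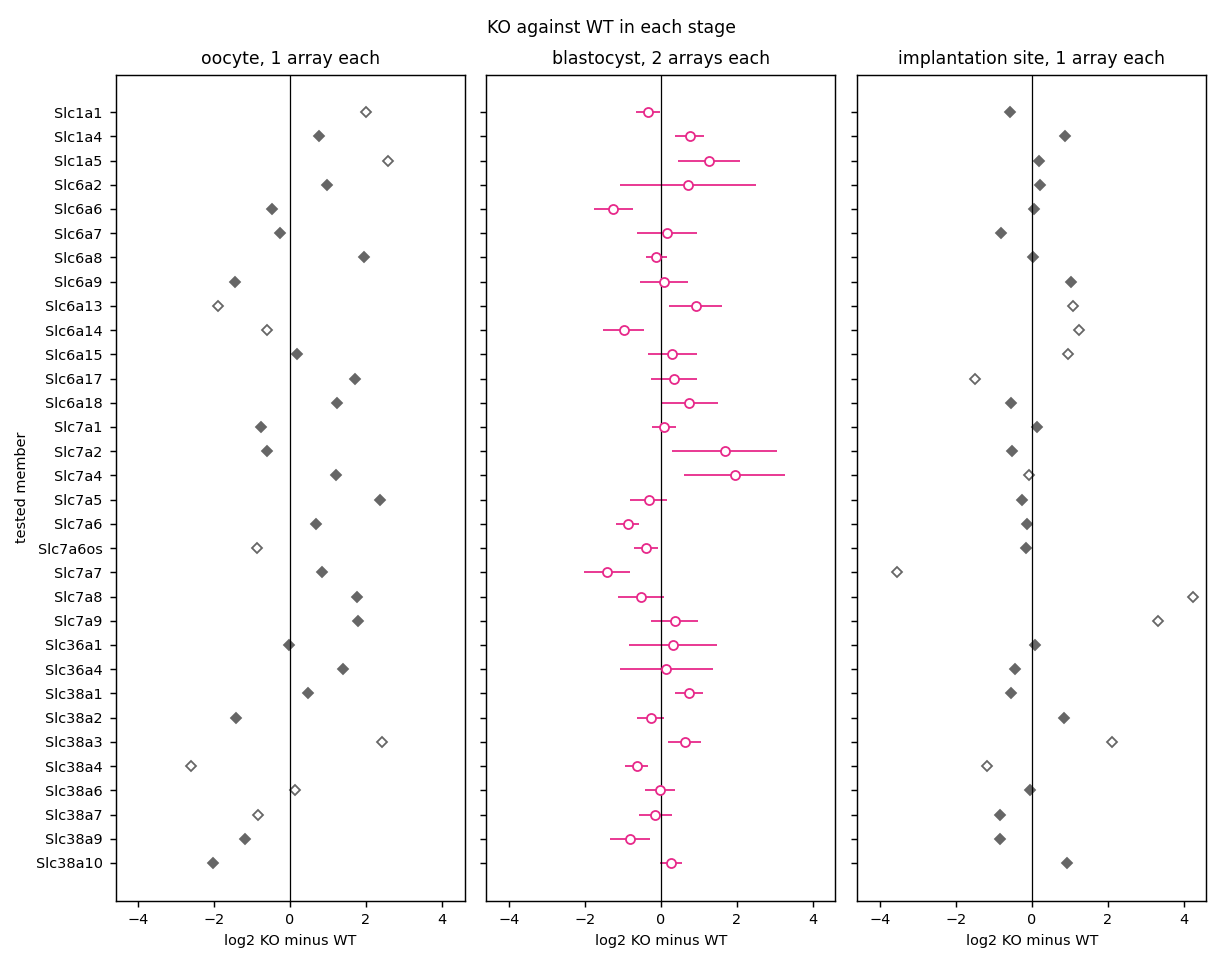
Log2 KO minus WT of the 32 tested members in oocytes (left, 1 array per genotype), blastocysts (middle, 2 per genotype, bars are standard errors of the limma fit) and implantation sites (right, 1 per genotype). Filled diamonds are members above background on both arrays; at the implantation site none of these is past 1.02, and Slc7a8, Slc7a9 and Slc7a7, with the largest differences, are open. No blastocyst point passed the test.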

How the data were processed

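Each of the 8 arrays (Affymetrix MOE430 2.0 mouse arrays, 45101 probe sets) came with intensity values deposited by the authors as linear signals, made with MAS5 per the submitters' processing notes. The labels and headers give no version. In the values every array had a 2% trimmed mean of 500.0, so arrays were already scaled to a common level. Probe sets were named from the platform annotation: 34945 had 1 gene, 932 several and 9160 none, besides 64 controls.

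Signals were log2 transformed, each gene was read on the probe set with the highest mean, and genes in the upper 50% of probe sets (mean signal 151) were tested, 11746 of 18194. Differences were tested with limma 3.58.1 in R 4.3.3 (moderated test with an intensity trend, 2-sided, Benjamini-Hochberg over all genes tested, adjusted p under 0.05), for KO against WT over the 4 blastocyst arrays and for stage and genotype over all 8. Oocyte and implantation site KO against WT have no test. The number of arrays limits the precision. The fits were also run on simulated data, and no result given here rests on that run. The labels do not say that replicate numbers pair the blastocyst arrays, so the main fit had no block. The KO and WT differences between replicates 1 and 2 correlated at 0.0182 across genes, which cannot decide whether arrays were paired. Alternatives were 2 other scalings, a pseudocount of 38.7, no filter, other choices of probe set, no trend, the replicate block and leaving out each array.

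Members and lists were chosen with earlier results of these data known. Values by array, or as ranges over the blastocyst arrays, were given for called members (at most 12 per comparison), members above background throughout a stage (8 per stage), the members most different between KO and WT (8 in blastocysts, 6 in each other stage) and a list of well known carriers; other genes named were chosen after their values were seen.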

Additional observations from a re-analysis of the deposited data

Results flagged for a closer look

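Among members above background on at least 1 array of each of these stages, those whose KO and WT arrays differed by at least 2-fold in opposite directions in oocytes and at the implantation site were Slc6a9 and Slc6a17, a vesicular carrier of neutral amino acids. For Slc6a9 the log2 KO minus WT difference was -1.46 in oocytes and 1.02 at the implantation site. The other Slc6a9 probe set ran in reverse, at 1.16 and -1.54. For Slc6a17 the difference was 1.70 in oocytes and -1.49 at the implantation site, where the KO array was below background. Another Slc6a17 probe set that passed the filter gave 1.45 and 0.063. Both patterns thus depended on the probe set read. Each stage had 1 array per genotype, and the difference between stages was not tested.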

How the results depend on the processing

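Over the 42 calls on members by stage, 626 recomputed values kept direction and side of the threshold in 551, lost significance in 74 and reversed in 1 (Slc7a1, implantation site against oocyte, -0.17 with probe sets averaged); 16 calls held under every alternative run. Leaving out 1 array gave 0 to 1 members higher in KO blastocysts (1, Slc7a4, without the array labelled WT replicate 2), 3 to 7 lower in blastocysts than oocytes (3 without the WT oocyte array), and 4 to 8 higher at the implantation site than in oocytes (4 without its KO array). Calls over all tested genes also fell in these comparisons without the WT oocyte or the KO implantation site array. That last count was 5 with probe sets averaged and 5 without the intensity trend. Over all tested genes it was 1681 and 2218, against 2409 in the main fit. The lower count was 5 when unfiltered, and 5 when probe sets were averaged. Over all genes it was 2222 and 1635, against 1955. Of the calls kept throughout, those of Slc6a7 and Slc36a4 came from genes with no further probe set. With the replicate block, 0 members were called in blastocysts in either direction (91 genes higher and 1 lower, against 12 and 0 without it); it changed no call on a member. The oocyte KO minus WT median of members was 0.038 under quantile normalization, -0.23 with a common median, 0.55 with probe sets averaged and 0.15 with probe sets without suffix. The implantation site median was 0.41 with a common median and -0.25 with probe sets averaged. The common median moved the all-gene medians to -0.45 and 0.28 at these stages, and to 0.26 for blastocyst minus oocyte. With 1 array per genotype at these stages, and dim signals below the control probe sets, small differences could not be resolved.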

Other observations

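Some members below the filter also differed by stage in the limma fit of all 18194 genes. Slc7a3, a cationic amino acid carrier, read 77.6 and 522 in KO and 474 and 811 in WT blastocysts and 38.2 and 26.3 at the implantation site (-3.48 ± 1.09 SE, adjusted p = 0.0308). Slc6a4, the serotonin transporter, read 301 and 324 in oocytes, where it was above background on the WT array, and 23.1 and 28.4 at the implantation site (-3.60 ± 1.19 SE, adjusted p = 0.0388).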
